A study of Rattus norvegicus with 24 samples.

Results

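The 7 genes Col1a1, Col1a2, Col3a1, Dcn, Lum, Ogn and Foxc1 were followed in sequenced RNA from 24 fetal rat brains, dissected to hippocampus and neocortex. They were taken by symbol from the table of 17420 genes, where each has 1 entry, and all 7 were above the offset of 0.0001 in all 24 pups. The question was how far these genes varied between pups, whether they varied together, and whether they differed between maternal treatment groups. The pups were Sprague-Dawley rats on embryonic day 18, with 6 pups in each of 4 groups, 3 from each of 2 litters. Saline dams were injected on gestational day 17. MAM dams received methylazoxymethanol acetate, an agent that methylates DNA, at 22 mg/kg intraperitoneally on gestational day 17. Poly I:C dams received polyinosine:cytosine, a double-stranded RNA that mimics viral infection, at 7.5 mg/kg intraperitoneally on the same day, and fetuses of injected dams were collected 18 hours later. Low Protein dams ate a diet with 6.1% protein from gestational day 11 to 18, against 20.3% in the control diet. Saline, the only control group, is taken here as the group on that control diet. The diet of the MAM and Poly I:C dams, and whether Low Protein dams were injected, is not given in the sources used here. The treatment was given to the dam, so pups of a litter share it, and pups of both sexes were combined. In the names used below, 2.2 is pup 2 of litter 2.

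Fibrillar collagens are secreted as procollagen triple helices, trimmed outside the cell and assembled into fibrils that give connective tissue its strength. Small leucine-rich proteoglycans bind to these fibrils and govern their spacing and thickness. In the fetal brain, cells that make such fibrils lie mainly in the meninges, the membranes around the brain, and around blood vessels, while neurons and their progenitors make little of them, and the forkhead factor Foxc1 is required for the meninges to form.

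Values are TPM as deposited, normalized to length, with the offset included, and log2 values are their logarithms. The deposited values of every pup sum to 70350.1. The table holds no counts, and the number of reads estimated from the steps between low values was 24.3 to 68.5 M (megareads) per pup, with a median of 40.1 M. The estimate leans on genomic spans and gives a median of 4191 reads per pup for Col1a1 and 5615 for Col3a1, but 76.5 for Col1a2 and 13.2 for Ogn. At the median, counting error alone would then be 1.54% for Col1a1, 11.4% for Col1a2 and 27.5% for Ogn. The values varied less than this allows. The log2 ratio of Col1a1 to Col1a2 had an SD of 0.115 over 24 pups, and an error of 11.4% is larger than that on the log2 scale. The SD of Ogn was 17.0% of its mean in Poly I:C, though more in the other groups. The estimated reads are therefore too few for Col1a2 and may be for Ogn, and the precision of these genes is not known. Markers of the labelled tissue were present in every pup. Tbr1, a factor of early cortical projection neurons, ranged from 10.4 to 16.9 TPM. In tissue RNA, fewer cells of a type and less RNA per cell cannot be told apart.

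Col1a1 encodes the alpha 1 chain of type I collagen. In Saline it ranged from 3.27 to 6.45 TPM with a median of 4.66, and in Low Protein from 1.37 to 17.4 with a median of 4.13. In MAM it ranged from 2.89 to 7.90 with a median of 4.91, and in Poly I:C from 2.47 to 8.34 with a median of 5.02. All 4 groups overlapped, and the Low Protein group held both the lowest pup, 1.3, and the highest, 2.2, which were 12.7-fold apart.

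Col1a2 encodes the alpha 2 chain, which joins alpha 1 chains in the type I triple helix. Its Saline pups lay between 0.0305 and 0.0519 TPM with a median of 0.0424, and its Low Protein pups between 0.0126 and 0.145 with a median of 0.0375. MAM pups ranged from 0.0230 to 0.0654 with a median of 0.0437, and Poly I:C pups from 0.0250 to 0.0634 with a median of 0.0416. The groups overlapped and the same Low Protein pups stood at the ends. The level per length of Col1a2 was far under that of Col1a1, and the ratio of Col1a1 to Col1a2 stayed between 98.8 and 131 over the 24 pups, with a median of 113. The reason for the low level of Col1a2 was not tested, so no stoichiometry of the chains can be read from these levels.

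Col3a1 encodes type III collagen, a homotrimer of softer tissues and vessel walls. Saline pups had 2.11 to 3.52 TPM with a median of 2.94, and Low Protein pups 0.990 to 8.94 with a median of 2.86. MAM pups had 1.92 to 4.03 with a median of 2.91, and Poly I:C pups 1.59 to 4.90 with a median of 3.24. The groups overlapped. The ratio of Col1a1 to Col3a1 ranged from 1.26 in Low Protein pup 2.3 to 1.96 in MAM pup 2.1, a far narrower range than that of either gene.

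Dcn encodes decorin, a proteoglycan that coats collagen fibrils. The Saline range was 0.208 to 0.383 TPM with a median of 0.315, and the Low Protein range 0.136 to 0.818 with a median of 0.267. The MAM range was 0.164 to 0.418 with a median of 0.321, and the Poly I:C range 0.211 to 0.360 with a median of 0.304. The Poly I:C pups all lay within the Saline range, and the other groups overlapped it.

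Lum encodes lumican, a keratan sulfate proteoglycan that limits fibril thickness, and it is the direct neighbour of Dcn in the GRCr8 annotation. In Saline it ranged from 1.07 to 2.56 TPM with a median of 1.55, and in Low Protein from 0.823 to 4.02 with a median of 1.14. In MAM it ranged from 0.802 to 1.98 with a median of 1.53, and in Poly I:C from 0.997 to 2.10 with a median of 1.65. The groups overlapped, and Lum was the only one of the 7 genes whose lowest pup, MAM 2.3, was outside Low Protein.

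Ogn encodes osteoglycin, a further leucine-rich proteoglycan that binds fibrils. Values in Saline ran from 0.0110 to 0.0214 TPM with a median of 0.0121, and in Low Protein from 0.00679 to 0.0375 with a median of 0.0120. Those in MAM ran from 0.00736 to 0.0197 with a median of 0.0115, and in Poly I:C from 0.0104 to 0.0162 with a median of 0.0133. The groups overlapped, and how many reads stood behind these low values is not known.

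Foxc1, the transcription factor, ranged in Saline from 0.989 to 1.72 TPM with a median of 1.42, and in Low Protein from 0.624 to 3.24 with a median of 1.28. In MAM it ranged from 0.992 to 1.82 with a median of 1.40, and in Poly I:C from 1.20 to 2.11 with a median of 1.35. Its groups overlapped too, and its highest and lowest pups were the same as those of Col1a1.

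**Figure D1:**
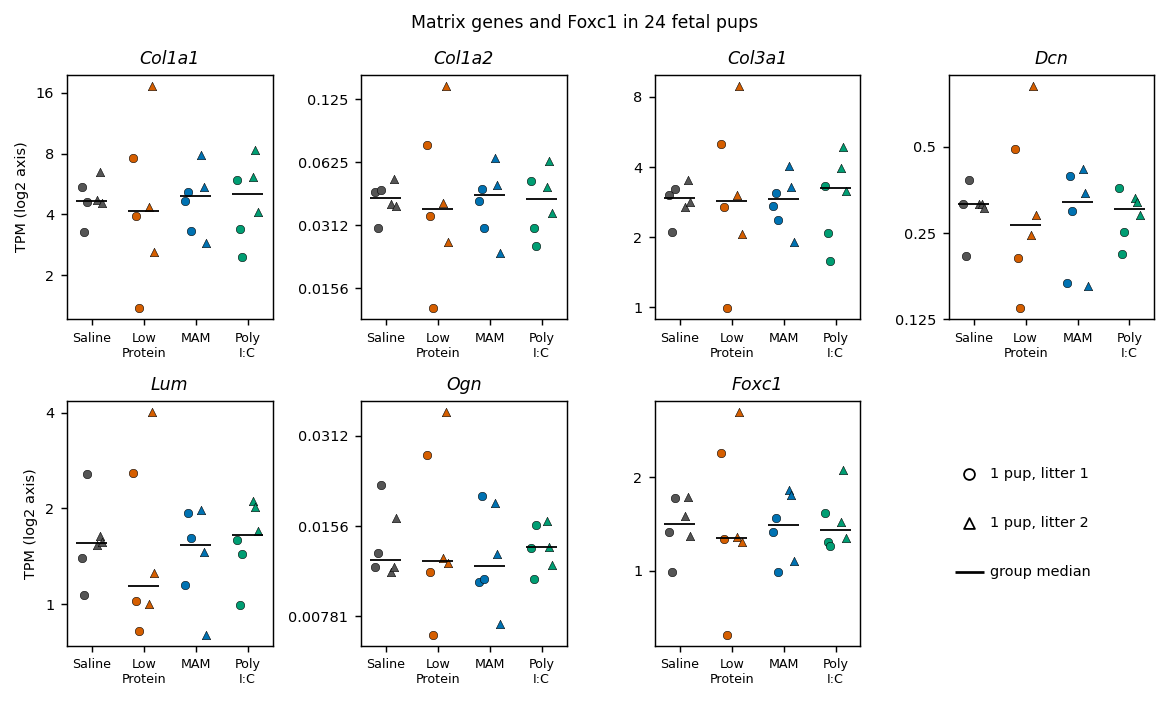
TPM of each gene on a log2 axis by maternal treatment group, with 1 symbol per pup (circles for litter 1, triangles for litter 2) and a line at the group median. Low Protein pup 2.2 is the highest of 24 for all 7 genes, for example at 17.4 TPM for Col1a1. The medians of the 4 groups lie between 4.13 and 5.02 TPM for Col1a1 and between 1.14 and 1.65 TPM for Lum.

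No difference in mean level between a treatment group and Saline passed the test for any of the 7 genes. Fold changes are log2 fold changes from limma, fitted to all 24 pups over the 12654 genes above the offset in every pup, with Benjamini-Hochberg adjustment over all of them. In Low Protein, 0 of 7 genes passed an unadjusted p of 0.05, where 7.21% of all genes did, and 0 of 7 passed an adjusted p of 0.05, where 0% of all genes did (912 genes at the unadjusted p). In MAM, 0 of 7 passed the unadjusted p, where 9.89% of all genes did, and 0 of 7 the adjusted p, where 0.0158% did. In Poly I:C, 0 of 7 passed the unadjusted p, where 9.37% of all genes did, and 0 of 7 the adjusted p, where 0% did (1186 genes at the unadjusted p). The median log2 fold change of the 7 genes was 0.011 in Low Protein, against -0.014 over all genes tested. The corresponding medians were -0.043 against -0.071 for MAM and -0.020 against 0.0035 for Poly I:C. All 3 comparisons share the Saline pups.

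For Col1a1 the log2 fold change against Saline was -0.083 under Low Protein, -0.031 under MAM and -0.020 under Poly I:C, with an SE of 0.41 each time. Col3a1 had values of 0.074, -0.018 and 0.051 in the same order, with an SE of 0.35. The value farthest from 0 was that of Lum in MAM, -0.14 with a 95% interval from -0.80 to 0.51, followed by Ogn in MAM at -0.14 with an interval from -0.80 to 0.52. Foxc1 had the narrowest intervals, for example from -0.49 to 0.62 in Low Protein around 0.063. Over all 21 values the intervals lay between -0.93 and 0.83 on the log2 scale, or between 0.523-fold and 1.78-fold. An estimate had to lie at least 0.55 from 0 for Foxc1 and 0.85 for Col1a1, with the other genes in between, for its 95% interval to leave out 0. Smaller estimates could not pass the unadjusted p, and real changes near these sizes can be missed. A p that missed the threshold therefore does not show that the groups were alike. When mean log2 values were compared by exact permutation of 6 pups and 6 pups (two-sided), p lay between 0.595 and 0.991 for the 21 values.

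**Figure D2:**
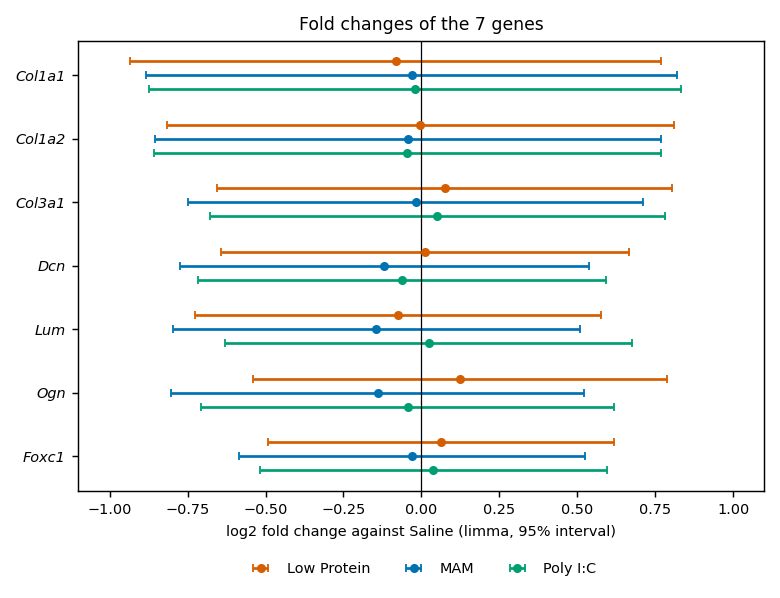
Log2 fold change of each gene against Saline from limma, with its 95% interval, for Low Protein, MAM and Poly I:C (6 pups each, against 6 Saline pups). All 21 intervals contain 0 and their bounds lie between -0.93 and 0.83.

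What differed between pups was the level of all 7 genes at once. Low Protein pup 2.2 ranked highest of 24 for 7 of 7 genes, and Low Protein pup 1.1 ranked 2 for 6 of 7 and 4 for Col1a1. At the other end, Low Protein pup 1.3 ranked lowest for 6 of 7 genes and 23 of 24 for Lum. Averaged over the 7 genes, pup 2.2 stood 1.54 above the Saline mean on the log2 scale, pup 1.1 stood 0.79 above it and pup 1.3 stood at -1.33. Outside Low Protein, the same mean ran from -0.75 in MAM pup 2.3 to 0.50 in MAM pup 2.1. Pups 1.1 and 1.3, near opposite ends, are litter mates, and pup 2.2 comes from the other litter.

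The SD of log2 TPM among Low Protein pups was larger than among Saline pups for all 7 genes. For Col1a1 it was 1.26 in Low Protein and 0.33 in Saline, a ratio of 3.88. The ratio was 4.57 for Col1a2, 4.24 for Col3a1 and 3.20 for Dcn. Foxc1 had a ratio of 2.77, Ogn of 2.38 and Lum of 2.21. Over all genes tested, the median ratio for Low Protein was 1.10 and 12.1% of genes had a ratio over 2. These comparisons of spread were chosen after the values were seen, and the 7 genes are not 7 independent cases since they move together.

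Tested by an exact two-sided permutation of the absolute deviations from the group median, 0 of 7 genes had a wider spread in Low Protein at p under 0.05, where 3.62% of all genes did. The p-values ran from 0.0606 for Col1a1 to 0.323 for Ogn. In MAM, where 2.08% of all genes passed, 0 of 7 did, and the ratios to the Saline SD were 1.19 to 2.10. In Poly I:C, where 6.23% of all genes passed, 0 of 7 did, and the ratios were 0.644 to 2.34. Without Low Protein pup 2.2 the Low Protein ratios were 1.56 to 3.52, without pup 1.3 they were 2.11 to 3.71, and without both they were 1.54 to 2.42.

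**Figure D3:**
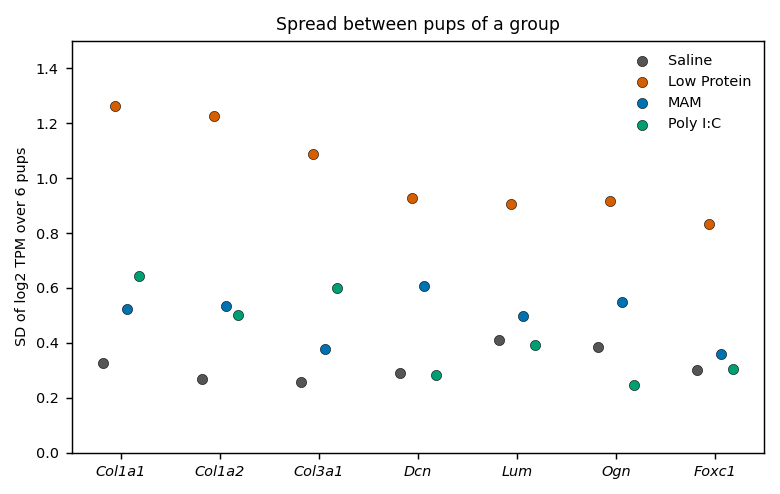
SD of log2 TPM over the 6 pups of each group, 1 dot per gene and group. The Low Protein dots are the highest for all 7 genes, at 1.26 for Col1a1, although no gene's spread differed from Saline at an exact p under 0.05.

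Most of the variation of the 7 genes lay among pups of the same litter. Differences between the 4 groups took 0.103% of the total sum of squares of log2 TPM for Col1a2 and 3.12% for Ogn, with the other genes in between. Differences between the 2 litters of a group took 5.81% for Ogn to 20.3% for Col3a1, and differences among pups of the same litter took 79.3% for Col3a1 to 91.1% for Ogn. With no difference between groups or litters, these 3 shares would average 13.0%, 17.4% and 69.6%, as the degrees of freedom are divided. The gap between the 2 litters of a group was tested 28 times by an exact permutation of 3 pups against 3, where the smallest p is 0.1. That p was reached by Lum in Poly I:C, with litter 1 at a mean log2 TPM of 0.40 and litter 2 at 0.95. The widest gap was that of Col3a1 in Poly I:C, with litter 1 at a mean log2 TPM of 1.15 and litter 2 at 1.98 (exact p of 0.2).

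The 7 genes rose and fell together across pups. A single axis, the first principal component, held 88.5% of their variance in standardized log2 TPM, and 89.0% once group means were removed. All 21 pairs were positively correlated over the 24 pups, with Pearson's r from 0.729 to 0.988 and Spearman's rho from 0.556 to 0.978. Permutation tests with 100000 resamples gave p-values, adjusted by Benjamini-Hochberg over the 21 pairs, of 1e-05 to 1e-04 for r and at most 0.00538 for rho, where 1e-05 is the smallest the permutations can give. Pups of a litter share a dam and are not fully independent, and the genes had been picked as a group, so these p-values describe the pups at hand. With group means removed r was 0.746 to 0.990, and with litter means removed 0.770 to 0.993.

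The pairs fell into 2 sets. The collagens and Foxc1 correlated at r of 0.930 to 0.988 over their 6 pairs, with Col1a1 and Col1a2 the closest at 0.988 and rho of 0.978. Dcn, Lum and Ogn correlated among themselves at 0.880 to 0.928, with the neighbours Dcn and Lum the closest. The 12 pairs between the sets were at 0.729 to 0.866, the lowest being Col1a1 with Ogn. By Spearman's rho the split was not complete. The pairs between the sets reached a rho of 0.859, while those of Dcn, Lum and Ogn started at 0.774. Within single groups the split by r held in MAM only. In Saline the pairs between the sets reached 0.890, while those of Dcn, Lum and Ogn started at 0.423. The same values were 0.795 and 0.476 in Poly I:C and 0.986 and 0.976 in Low Protein. Whether the sets differ was not tested.

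**Figure D4:**
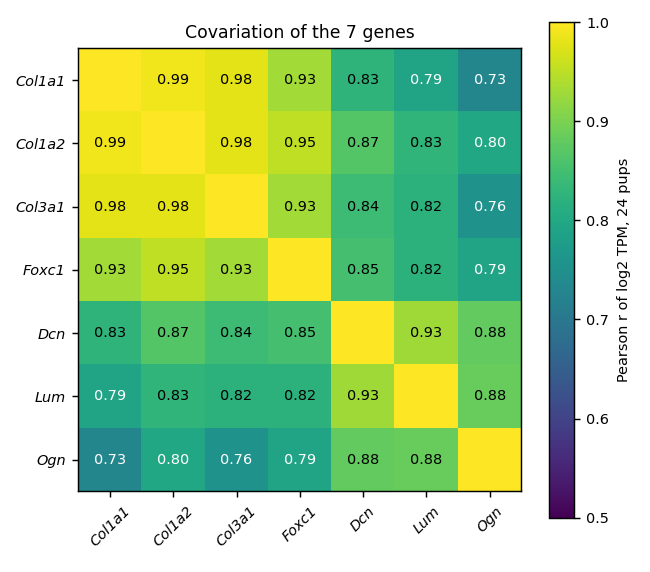
Pearson's r of log2 TPM between each pair of the 7 genes over 24 pups, by colour and number. The block of Col1a1, Col1a2, Col3a1 and Foxc1 is at 0.93 and above, and the lowest pair is Col1a1 with Ogn at 0.73.

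The extreme Low Protein pups carried part of these values. Without the 2 pups farthest from the median of the gene on the x axis, r was 0.470 to 0.973 over the 21 pairs. Both were Low Protein pups, except with Lum on the x axis, where MAM pup 2.3 was among them. Without the 6 Low Protein pups, a choice made after the values were seen, r was 0.356 to 0.977 over 18 pups, and 18 of 21 pairs kept an adjusted permutation p under 0.05. The 3 pairs that did not were those of Ogn with Col1a1, Col3a1 and Foxc1, with r of 0.356, 0.385 and 0.441. Within single groups of 6 pups, Low Protein gave r of 0.90 to 0.999 and MAM 0.526 to 0.995. Saline gave -0.240 to 0.984 and Poly I:C 0.0798 to 0.995, and in both groups the lowest pair was Ogn with a collagen. Among collagens and Foxc1 alone, r stayed between 0.777 and 0.984 in Saline and between 0.816 and 0.995 in Poly I:C.

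Because the members moved together, the bases before their starts were read from the RefSeq promoter table of the GRCr8 assembly, which holds 4 of the 7 genes: Col1a2, Lum, Ogn and Foxc1. The 250 bases before the start used in that table lie outside the annotated span of Col1a2 and of Foxc1. All 250 bases of the Lum window and 172 of those of Ogn lie inside the annotated span of the gene, so these windows are left out. The other two were searched on both strands for TATAAA, which is read as a TATA box, for CCAAT, for GGGCGG, which is read as a GC box, and for TAAACA, which is read as a forkhead core. Col1a2 and Foxc1 each hold 1 CCAAT box, and the 100 bases around it are shown 5′ to 3′ with the motifs in capitals, where ATTGG is the CCAAT box read on the other strand. No hits of different motifs overlap in them.
Col1a2, chr4:33518307-33518406, plus strand: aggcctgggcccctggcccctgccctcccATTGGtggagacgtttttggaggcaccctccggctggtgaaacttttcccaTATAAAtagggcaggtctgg
Foxc1, chr17:32844151-32844250, minus strand: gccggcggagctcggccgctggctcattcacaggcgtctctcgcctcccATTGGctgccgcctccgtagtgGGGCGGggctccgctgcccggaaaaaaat
The CCAAT box began at position -221 in Col1a2 and -101 in Foxc1, where -1 is the base just before the annotated start. Among 33469 promoters of the same length, 34.0% held a CCAAT box, 12.9% a TATA box, 30.5% a GC box and 12.1% a forkhead core. Col1a2 also held a TATA box at -170 and Foxc1 a GC box at -79, both shown, and neither held a forkhead core in this window. GC content of the 250 bases was 58.4% for Col1a2 and 70% for Foxc1, against a median of 51.2%. These matches of letters are common among promoters and nothing further is read from them.

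The genes most like the 7 were sought among the other 12647 genes tested, by Pearson's r over 24 pups with the mean of the standardized log2 values of the 7, group means removed. The first 10 were Aldh1a2 (r of 0.976), Lhfpl2 (0.968), Islr (0.966), Slc22a6 (0.963), Prelp (0.960), Igf2 (0.959), Mrc1 (0.958), Kank2 (0.956), Col6a2 (0.956) and Tbx18 (0.954). The median r over all 12647 genes was 0.0808, and 71 genes exceeded 0.9. Of the 10, 4 are on the list of meningeal markers, namely Aldh1a2, the enzyme that makes retinoic acid, Slc22a6, an organic anion transporter, Igf2, a growth factor, and Tbx18, a transcription factor of mesenchyme. Prelp is a leucine-rich proteoglycan, Col6a2 a chain of type VI collagen and Mrc1 the mannose receptor of macrophages.

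Aldh1a2 followed the pattern of pups closely. In Saline it ranged from 0.139 to 0.227 TPM with a median of 0.183, and in Low Protein from 0.0589 in pup 1.3 to 0.548 in pup 2.2 with a median of 0.158. In MAM it ranged from 0.112 to 0.235 and in Poly I:C from 0.127 to 0.204. For all 10 genes the highest pup of 24 was Low Protein 2.2 and the lowest was Low Protein 1.3. The 10 were picked for their likeness to the 7 over these same pups, so shared end pups were close to given. Without the 6 Low Protein pups, 7 of the 10 genes were again among the first 10, with Aldh1a2 first at an r of 0.948, and 3 genes in all exceeded 0.9. The remaining pups had also entered the choice of the 10.

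Other gene lists were compared with the 7 genes by the correlation, over 24 pups, of a list's mean log2 TPM with that of the 7 genes, given as a description of 18 relations without p-values. These means share the libraries and their normalization. Values of r given for single list genes use the measure of the preceding search, with group means removed. The list of meningeal markers had r of 0.957 and rho of 0.909 over its 24 genes tested, and 21 of the 24 had r above 0.5. Its summed TPM ranged from 40.1 to 67.6 in Saline, 28.1 to 137 in Low Protein, 32.4 to 68.5 in MAM and 41.4 to 65.7 in Poly I:C, with Low Protein pup 2.2 at the top and 1.3 at the bottom. A few genes weigh most in this sum, such as Ptgds with up to 40.7 TPM and Igf2 with up to 39.7, while many others stay low. All 25 of its genes were in the table, and none was at the offset in every pup. Zic4, a zinc finger factor that neural tissue also expresses, was its least like gene at 0.246, and Crabp2, which binds retinoic acid in the cell, was at 0.762.

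Lists of matrix genes were also related to the 7 genes in their means, but less evenly gene by gene. Basement membrane genes had r of 0.893 with the 7 genes, and 7 of 7 had r above 0.5. Fibroblast matrix genes had r of 0.936 and rho of 0.930, a higher rho than the 0.909 of meningeal markers. In r, 10 of 14 were above 0.5, from the elastic fibre gene Fbln5 at 0.924 to the microfibril gene Mfap4 at 0.065. Further leucine-rich proteoglycans had r of 0.910, with 3 of 5 above 0.5. Genes that modify, fold, trim and cross-link collagen had r of 0.866, with 16 of 24 above 0.5, and with Plod1, a lysyl hydroxylase, the most like at 0.918 and Ppib, a general folding enzyme of the secretory pathway, the least at -0.076. Other interstitial collagens had r of 0.841 (5 of 6 above 0.5) and other fibrillar collagens 0.803 (4 of 7). In the last list Col5a2, which joins type I fibrils and lies beside Col3a1 in the GRCr8 annotation, was at 0.941, and Col5a3 at 0.218. Collagen receptors were at 0.782 (5 of 6), and collagenases and their inhibitors at 0.780 (4 of 7). TGF-beta signalling, a main inducer of collagen genes, was at 0.725 (8 of 15), and its signal transducer Smad2 was the least like gene at -0.268.

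Markers of other cell types moved with the 7 genes to unequal degrees. Mural cells of vessels had r of 0.915, microglia and macrophages 0.902, endothelial cells 0.853 and blood 0.790. In the same order, 9 of 11, 6 of 8, 11 of 11 and 9 of 9 genes had r above 0.5. The summed TPM of the 9 blood genes in the table, led by Hba1, ranged from 2079 to 3596 in Saline, 1910 to 4662 in Low Protein, 2357 to 4240 in MAM and 2642 to 4377 in Poly I:C. Summed endothelial TPM ranged from 50.5 to 69.7 in Saline and 40.9 to 86.8 in Low Protein, again with pup 2.2 highest and pup 1.3 lowest of 24. Within the macrophage list, Mrc1 was at 0.958 and Cx3cr1, the fractalkine receptor of microglia, at 0.054. Choroid plexus markers were at an r of 0.512, skull and cartilage markers at 0.444 and skin and muscle markers at 0.389. Their rho was higher, at 0.694, 0.583 and 0.481. For these 3 lists Low Protein pup 2.2 ranked 2, 20 and 5 of 24 in summed TPM. Cortex and hippocampus markers were at an r of 0.038, and none of their 11 genes had r above 0.5. The part that the amount of meninges, vessels or blood left on each dissected sample has in the levels of the 7 genes was not tested.

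**Figure D5:**
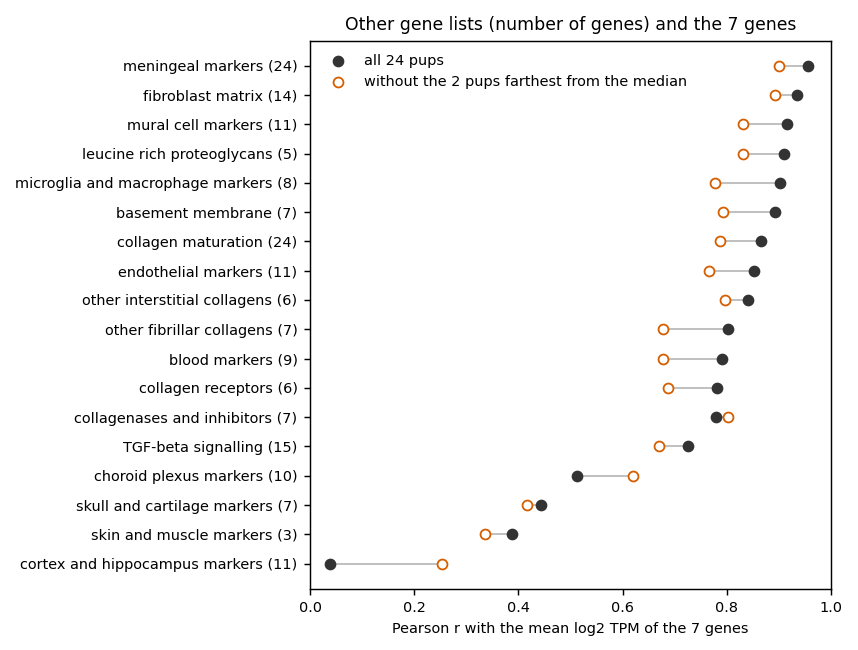
Pearson's r, over 24 pups, between the mean log2 TPM of each gene list (number of genes tested in brackets) and that of the 7 genes, with all pups (filled) and without the 2 pups farthest from the median (open). Meningeal markers lie at 0.957 and cortex and hippocampus markers at 0.038.

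Against Saline, no list gene passed an adjusted p of 0.05 in limma. Of 185 list genes tested by limma, 5 were higher and 2 lower in Low Protein at an unadjusted p under 0.05, which is 3.78% of them. In MAM 3 were higher and 6 lower, or 4.86%, and in Poly I:C 6 were higher and 2 lower, or 4.32%. These shares are under the 7.21%, 9.89% and 9.37% of all genes.

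Among collagen genes outside the 7, Col5a3, a chain of type V collagen, had a log2 fold change of -0.45 in Low Protein (SE 0.21, limma adjusted p = 0.682). In Poly I:C the value of Col5a3 was -0.51 (SE 0.21, limma adjusted p = 0.440). Col2a1, the collagen of cartilage, had a value of 0.30 in Poly I:C (SE 0.11, limma adjusted p = 0.375). Col11a1, which joins type II fibrils, had a value of -0.27 in MAM (SE 0.12, limma adjusted p = 0.496). None of these values passed the adjusted p.

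Outside the collagens, Pf4, a chemokine on the macrophage list, had a value of 0.73 in Low Protein and 0.75 in MAM (SE 0.29 each, limma adjusted p of 0.647 and 0.496). In Poly I:C the value of Pf4 was 0.014. Spp1, a secreted glycoprotein of bone that macrophages also make, had a value of 0.59 in Poly I:C (SE 0.20, limma adjusted p = 0.364). Runx2, the bone factor, had a value of -0.52 in Poly I:C (SE 0.34, limma adjusted p = 0.654) at a mean of 0.00168 TPM over all pups. Its value in MAM was -0.75 (SE 0.34, limma adjusted p = 0.496). The lowest p among lower skull and cartilage genes in MAM was that of Col9a1, a collagen gene, at -0.37 (SE 0.17, limma adjusted p = 0.496). Ctgf, a matricellular target of TGF-beta, had values of 0.25 for Low Protein, 0.33 for MAM and 0.29 for Poly I:C (SE 0.12 each), with limma adjusted p of 0.692, 0.496 and 0.440. Timp2, an inhibitor of matrix metalloproteinases, had a value of -0.26 in Poly I:C (SE 0.089, limma adjusted p = 0.364). Among meningeal markers 0 of 24 passed an unadjusted p in any comparison, and their median log2 fold change was 0.060 for Low Protein, -0.037 for MAM and -0.012 for Poly I:C. The farthest from 0 by p were Foxc2, a forkhead factor related to Foxc1, at 0.56 in Low Protein (SE 0.43), Zic4 at -0.91 in MAM (SE 0.49) and S100a6 at -0.78 in Poly I:C (SE 0.44).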

How the data were processed

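RNA of 24 pups was sequenced as paired reads from a stranded mRNA kit. The authors trimmed reads at phred 30 with a minimum length of 25, aligned them to rn6 with STAR (version 2.4.1d, as the submitters' processing notes also give), counted them on RefSeq transcripts in Partek by expectation maximization, and deposited TPM values with an offset of 0.0001. Columns were matched to samples by the sample number in the labels, and the first part of the replicate number was taken as the litter.

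The log2 of the deposited TPM was fitted in R (version 4.3.3) by limma (version 3.58.1) with a variance trend in eBayes on all 24 pups over the 12654 genes above the offset in every pup. The filter is wider than the study's (mean above 1 in every group), because values per length leave out long genes. Exact permutation tests used 924 splits of 6 against 6. Correlations and exact tests were computed in Python (version 3.11.15). Reads per pup were estimated from steps of low values times genomic span in GRCr8 (15098 genes), of which 49.1% to 54.5% lay within 0.05 of a whole number. The scripts were tested on simulated data.

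The 7 genes and the 18 gene lists were chosen with earlier results of these data known. Genes named are the 7, list genes with the lowest p in each direction, the 10 genes most like the 7, and markers at the ends of their list. Of these, only part is printed. Fbln5, Plod1, Col5a2 and Mrc1 are the most like genes of their lists, while Crabp2 and Tbr1 were named after their values were seen. Alternatives covered the filter, scaling, pseudocount, variance trend, pups, litter and a replicate block.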

Additional observations from a re-analysis of the deposited data

Results flagged for a closer look

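Of the 28 sets of 6 pups (7 genes in 4 groups), 1 held a pup set apart from the rest on the log2 scale by a gap that exceeded Dixon's 95% limit for 6 values. Dcn in Saline pup 1.2 had a log2 TPM of -2.26, or 0.208 TPM, and the next Saline pup was at 0.307 TPM. Chance flags about 1 in 20 such sets. Low Protein pup 2.2 did not exceed the limit for any gene on the log2 scale, since pups 1.1 and 1.3 also lay far from the group's centre. On the deposited scale, the highest Poly I:C value of Foxc1, 2.11 TPM in pup 2.2, was set apart in the same way, with the next pup at 1.53 TPM.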

How the results depend on the processing

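Under 43 other settings (11 of the fit, 24 that left out 1 pup and 8 that left out 1 litter), 0 of 7 genes passed an unadjusted or adjusted p of 0.05 in limma in any comparison, and the lowest unadjusted p was 0.184, for Col1a1 in Low Protein without Low Protein pup 2.2 (adjusted p = 0.794). With a mean above 1 required in every group, 4 of the 7 genes were left. In the fit with the pup number as a replicate block, the count of genes passing was also 0 in each comparison. The numbers are no pairing of the pups by design, and same-numbered pups of different groups correlated in their deviations at -0.159 to 0.327 over 36 pairs (median 0.036), 16 of them above 0.1. The litter correlation in the random-effect fit was 0.0092.

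Signs of fold changes this close to 0 turned in 13 values of the 11 settings of the fit and in 96 values with a pup or litter left out. With median-of-ratios scaling the MAM values were 0.033 for Col1a1, 0.022 for Col1a2, 0.047 for Col3a1 and 0.036 for Foxc1, and the Low Protein value of Col1a2 was 0.022. With upper quartile scaling the MAM values were 0.0091 for Col1a1, 0.022 for Col3a1 and 0.012 for Foxc1, and the Poly I:C value of Lum was -0.00014. With log2(value + 0.01) the Low Protein value of Col1a2 was 0.061, and with log2(value + 1) its values were 0.018 for Low Protein, 0.00057 for MAM and 0.00017 for Poly I:C. Over all genes tested, the median MAM value was -0.071 as deposited, -0.0060 with median-of-ratios scaling and -0.030 with upper quartile scaling. In Low Protein it was -0.014, 0.011 and -0.012, and in Poly I:C 0.0035, 0.0042 and -0.020, in the same order. The cause of the turned signs was not tested.

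With 1 pup or litter left out, the Low Protein values ranged from -0.47 to 0.30 for Col1a1, -0.37 to 0.36 for Col1a2, -0.27 to 0.42 for Col3a1, -0.33 to 0.36 for Dcn, -0.36 to 0.13 for Lum, -0.14 to 0.36 for Ogn and -0.18 to 0.31 for Foxc1. The MAM values ranged from -0.19 to 0.11 for Col1a1, -0.18 to 0.12 for Col1a2, -0.12 to 0.094 for Col3a1, -0.24 to 0.034 for Dcn, -0.26 to 0.020 for Lum, -0.27 to 0.0093 for Ogn and -0.17 to 0.11 for Foxc1. The Poly I:C values ranged from -0.37 to 0.33 for Col1a1, -0.29 to 0.20 for Col1a2, -0.36 to 0.46 for Col3a1, -0.18 to 0.050 for Dcn, -0.25 to 0.30 for Lum, -0.14 to 0.086 for Ogn and -0.089 to 0.17 for Foxc1.

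All 21 pairs kept an adjusted permutation p under 0.05 with group or litter means removed, under both scalings, with either pseudocount, without the 2 pups farthest from the median, and with each pup left out (r 0.601 to 0.990). Over all genes, the split of higher and lower calls at an unadjusted p in MAM was 278 and 973 as deposited but 685 and 360 with median-of-ratios scaling and 501 and 555 with upper quartile scaling. In Low Protein it was 342 and 570 as deposited, 502 and 480 with median-of-ratios scaling and 319 and 717 with upper quartile scaling. In Poly I:C it was 503 and 683, against 645 and 758 and 403 and 1050. The table holds no counts, so depth enters no test, and how many reads stood behind Ogn and Col1a2 is not known. The spread between dams was estimated from only 2 litters per group.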
